A study of Schmidtea mediterranea with 152 samples.

Results

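The cells described here came from intact planarians, and the study describes them as tail tip muscle outside the posterior pole. They were chosen by their label, uninjured non-pole, which 65 libraries of the series carried, while the other 87 were pole cells (7) or came from regenerating tails (75 non-pole and 5 pole) and are not described. In 6 pairs the counts of both libraries were close to each other, and each pair was summed to 1 cell, which gave 59 cells. Scaled by its degrees of freedom, the chi-square between libraries was 1.28 to 2.02 in 5 of these pairs and 7.4 in that of libraries 54 and 55, where sampling noise alone gives about 1. A cell needed 50000 reads in its summed library to be kept, and 53 of the 59 had them. All came from asexual Schmidtea mediterranea of the CIW4 strain that had been starved for 7 to 14 days and not amputated. The tissue was cut from the tail tip as fragments that held the posterior pole. The dissociated cells were sorted by flow cytometry as non-dividing, 1 to a well, and their cDNA was made by Smart-seq2, which amplifies polyadenylated RNA along its length without molecular identifiers. By the study's account, wells were sequenced where a qRT-PCR of the cDNA detected collagen and did not detect wnt1. Collagen was the muscle gene of the screen, and wnt1 is the gene that defines the pole. The study counts fewer uninjured non-pole muscle cells than the 53 kept here. Of these 53, 12 had little collagen, so entry through the screen is not shown for every cell. The labels named no animal, so the 53 cells count as 1 sample. No test was possible, and every value below describes these cells only.

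Planarian muscle cells contract, secrete much of the extracellular matrix of the body, and act as a source of positional information. The last of these roles rests on position control genes, which encode mostly secreted ligands, receptors and inhibitors of the Wnt, FGF receptor-like and BMP families and are transcribed by muscle in restricted domains along the body axes. At the tail tip, the posterior pole is a small cluster of muscle cells that transcribes wnt1 and lies among other muscle with further posterior Wnt genes.

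The primers of the qRT-PCR screen are given here because the study used them to choose which wells to sequence. They are designed oligonucleotides, written 5′ to 3′ in lower case, of 25 and 24 bases for wnt1 and of 24 and 23 bases for collagen.
wnt1 forward: gtgacattatgctcaaaggatttcc
wnt1 reverse: acggacagtgtgataacttaaacg
collagen forward: ggtgtacttggagacgttggttta
collagen reverse: ggtctaccttctcttcctggaac
By the study's account a collagen signal was therefore a condition of entry, so the collagen values below are a check and not a finding.

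The kept cells held 62749 to 3527793 reads, with a median of 444246, on 26399 transcripts of a planarian transcriptome assembly (contig numbers written as dd_ and a number). Levels are given as CPM, a cell's reads of a transcript scaled to the same total in every cell, and were not divided by transcript length, so an order of transcripts is an order of reads and not of RNA molecules. To count the cells in which a transcript was read, each cell was first thinned at random to 50000 reads, at which 1 read is 20 CPM. At that depth a cell had reads on 830 to 5948 transcripts, with a median of 2727. The 6 cells summed from pairs (31, 34, 36, 54, 57 and 62) had the highest of these counts, 4341 to 5948. Whether these libraries held more than 1 cell was not tested. A transcript with no read in any of the 53 cells could still be read in up to 6.72% of such cells. Intervals below are exact, at 95%, and cover counting error only. Names are the study's own or those of the closest match in other animals. They were available for 653 transcripts from lists of pole-enriched and of nr4A-positive muscle genes, so many transcripts carry a number alone.

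Not every cell had the collagen level of a muscle cell. The 13 collagen transcripts summed to 17177 to 172463 CPM in 41 cells and to 1305 CPM or less in the other 12 (cells 2, 3, 12, 18, 25, 26, 31, 49, 59, 61, 62 and 63, numbered in accession order), and no cell lay between. The marker dd_701 (COL24A1) was read in all 41 cells at full depth and dd_840 (COL1A2) in 40 of them, while of the 12 cells 9 had any read of dd_701 and 9 any read of dd_840. After thinning, dd_701 was read in 44 of 53 cells and dd_840 in 43 of 53. The contractile transcripts summed to 99.7 to 6204 CPM in the 12 cells and to at least 2586 CPM in the 41, so here the cells overlapped, as the plot of collagen against contractile level shows.

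**Figure D1:**
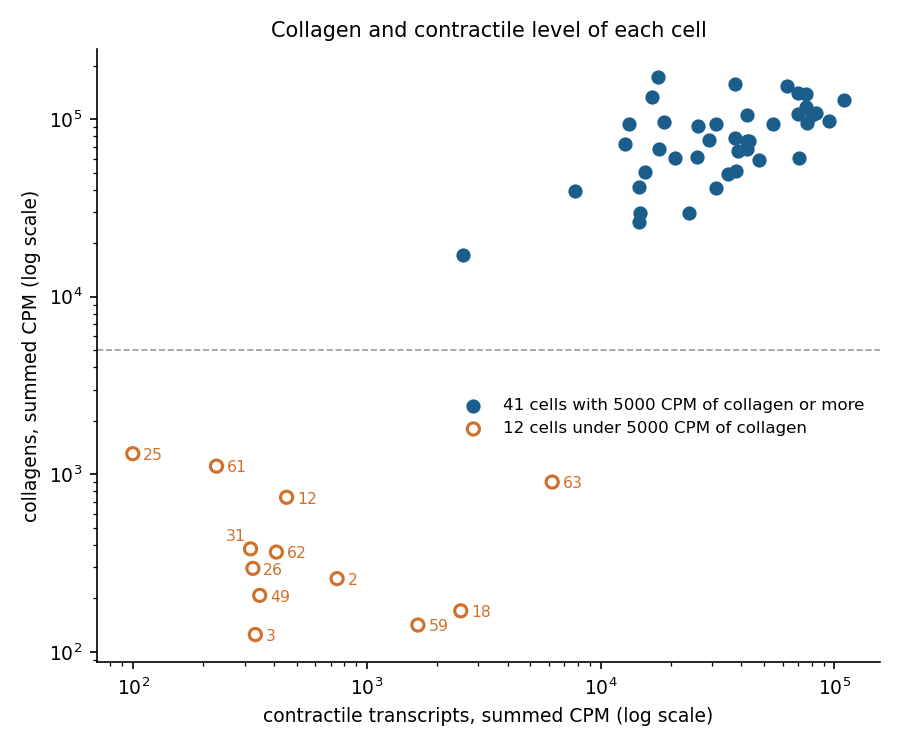
Summed level of the 13 contractile transcripts (x axis, CPM, log scale) against that of the 13 collagens (y axis, CPM, log scale) in each of the 53 cells. Filled points are the 41 cells above the dashed line at 5000 CPM of collagen, which span 17177 to 172463 CPM, and open numbered points are the 12 cells at 1305 CPM or less.

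Some of the 12 cells carried genes of other cell types. The epidermal lineage gene agat-1 (dd_920) stood at 1561 to 11573 CPM in cells 25, 26, 31, 49, 61 and 62. Its highest level among the 41 cells was 2030 CPM, in cell 57, which was summed from 2 libraries. The other epidermal marker searched, vim (dd_950), had no read in any cell. Neuron markers, a list of 10 that includes the prohormone convertase PC2 (dd_1566), summed to 2911 CPM in cell 2, 5915 CPM in cell 12 and 7201 CPM in cell 63, against at most 1581 CPM in the 41 cells. The neuron sum reached 500 CPM in 10 cells, of which 7 were among the 41, and PC2 was read after thinning in 30 cells, 21 of them collagen-rich. A list of 12 cilia genes reached 500 CPM in 5 cells, 4 of them among the 12. A list of 7 cell division genes reached 500 CPM in 3 cells, all among the 41, with the highest sum (2736 CPM) in cell 42, where all of it was LIG1 (dd_7382). What part these cells play in any result was not tested, and results are given for all 53 cells and again for the 41.

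The wnt1 transcript (dd_28398), whose detection was to exclude a well, still had reads in 6 cells, all of them collagen-rich. After thinning it was read in 4 cells. It had 47 reads in cell 5, 24 in cell 8, 8 in cell 7, 3 in cell 13, 2 in cell 6 and 1 in cell 56, and none in the other 47 cells. The highest of these levels was 224 CPM, in cell 5, where the tail ligand wnt11-2 (dd_16209) stood at 1903 CPM. For the cells with wnt1 reads, the label non-pole rests on the study's screen and not on the reads.

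The most reads fell on a mixed set of transcripts, led by an unfamiliar one and by muscle myosin. The 10 transcripts with the most summed reads held 14.4% of all reads, the top 20 held 20.5% and the top 100 held 37.9%, and 310 transcripts were needed to reach 50%. Of the top 20, 8 were collagens, 1 was contractile and 10 carried no name. Ranked by the mean of the cells' CPM, which gives every cell the same weight, 17 of the 20 stayed in the top 20.

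The transcript with the most reads was dd_1574, whose closest match is a TNF receptor-associated factor, a type of signalling adaptor, at 25208 summed CPM (25161 to 25255). It ranged over 564 CPM in the lowest cell, a median of 4627 CPM and 85519 CPM in the highest. Muscle myosin heavy chain, dd_432 (MhcA), was the next at 21189 summed CPM, and over cells it had 34.1, 11811 and 61205 CPM as its lowest, median and highest values. Its median was thus higher than that of dd_1574, although fewer of the summed reads were its own. The named rest of the top 20 were collagens: dd_701 (COL24A1), dd_649 (COL2A1), dd_402 (COL11A1), dd_832 (COL1A2), dd_702 (COL2A1), dd_1070 (COL2A1), dd_740 (COL2A1) and dd_840 (COL1A2), with 5095 to 14608 summed CPM. Together the collagens held 8.61% of the reads, the contractile transcripts 3.79% and the 88 position genes listed below 0.729%.

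No transcript led in most cells. The unnamed dd_37 had the most reads in 12 cells, the unnamed dd_258 in 10, dd_1574 in 9, MhcA in 6 and dd_649 (COL2A1) in 5, and 7 further transcripts led in 1 to 3 cells each. The leading transcript of a cell held 1.12% to 20.7% of its reads. The 20.7% belonged to cell 18 and to the unnamed dd_3, which also led in cell 59, and both of these cells are among the 12 with little collagen.

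The level of dd_1574 followed the running library numbers of the labels. It was at 10000 CPM or more in 16 cells, from 15556 to 85519 CPM, and at most 9837 CPM in the other 37. The library numbers of these cells run in 4 stretches, and the numbers between the stretches belong to regenerating libraries. Pole libraries lie inside the stretches of 13 and 5 cells. The labels do not say whether a stretch was a plate or a preparation. Of these 16 cells, 11 lay in the last stretch of 24 cells, all from cell 38 to cell 50, and 3 lay in the stretch of 5 cells (cells 14, 15 and 16). A further 2 (cells 2 and 3) lay in the first stretch of 13 cells and 0 in the stretch of 11 cells. The unnamed dd_5675, dd_1760, dd_4621 and dd_11155 moved with it: across the 53 cells the Spearman rho of dd_1574 with them was 0.891, 0.778, 0.629 and 0.818, and across the 41 cells 0.830, 0.703, 0.624 and 0.856. Within the stretches of 13, 11 and 24 cells, the rho of dd_1574 with dd_5675 was 0.934, 0.50 and 0.942. High cells were grouped inside the stretches of 13 and 24 cells too, so these values do not hold library order fixed. Over all cells, dd_1574 had a rho of -0.52 with the share of counted reads on 2 further contigs that were left out of the totals, and of -0.01 with the collagen level. The part of the library order in these levels was not tested.

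**Figure D2:**
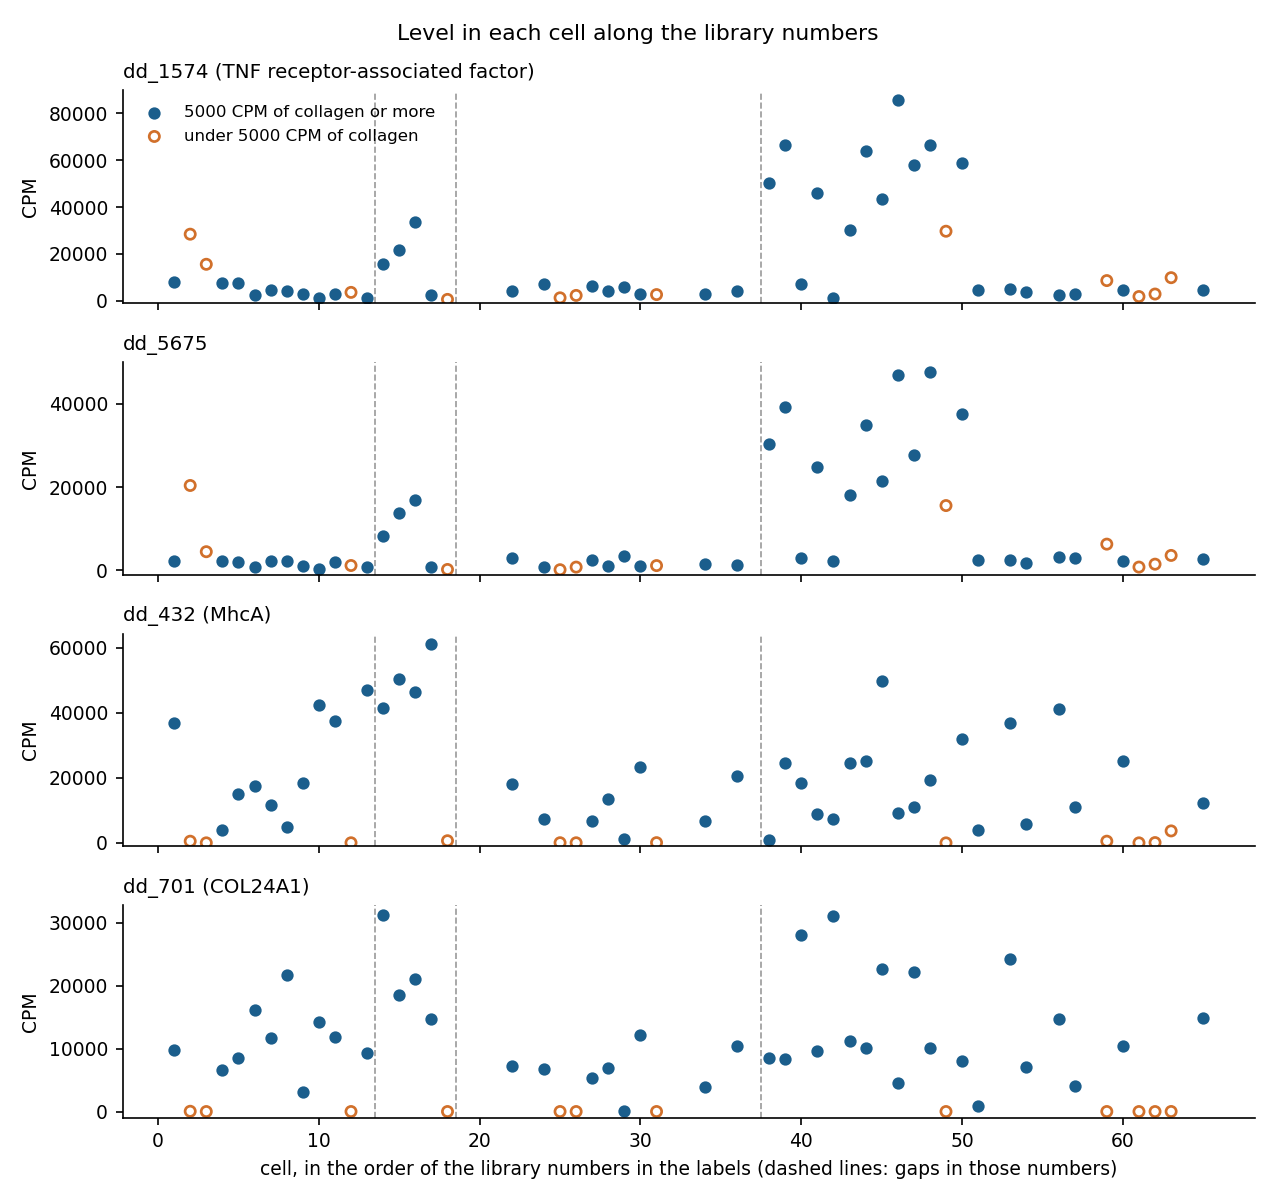
Level (y axis, CPM) of dd_1574, dd_5675, MhcA and dd_701 in each cell, with cells on the x axis in the order of the library numbers. Dashed lines mark the gaps in those numbers that regenerating libraries fill. Filled points are the 41 cells with 5000 CPM of collagen or more and open points the other 12. For dd_1574 and dd_5675 most of the high cells lie at 14 to 16 and between 38 and 50, with cells 2 and 3 beside them for dd_1574, while MhcA and dd_701 are high in all 4 stretches.

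Few transcripts were read everywhere. After thinning, 19 of 26399 transcripts (0.072%) were read in all 53 cells, and of these only dd_1574 and MhcA carried a name. They held 11.8% of the reads. The other 17 include dd_5675, dd_1760, dd_258, dd_15, dd_4621, dd_11155, dd_1692, dd_30, dd_1635 and dd_300, and dd_37 followed with 52 cells. At the other end, 3934 of the 18754 transcripts with a thinned read were read in a single cell (21%), and 7645 transcripts were read in no cell.

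In the 41 collagen-rich cells, 45 transcripts (0.17%) were read in every cell, and 18 of them had a name. Among the 18 were 10 collagens and 4 contractile or actin-binding transcripts, namely MhcA, MYL6B (dd_223), a myosin light chain, TPM1 (dd_405), a tropomyosin, and VIL1 (dd_1132), named after the actin-bundling protein villin. The remaining 4 named ones were dd_1574, RAB28 (dd_375), a small GTPase, ARHGEF17 (dd_2922), a guanine nucleotide exchange factor, and a clone without known function (dd_323). The collagens in this count were favoured by the screen, and the 41 cells were themselves split off by their summed collagen level.

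The collagens were the list with the largest share of members read in most cells. Of all transcripts, 4.24% were read in at least 27 of the 53 cells, and 12 of the 13 collagens were. In the 41 cells, where 4.28% of all transcripts reached at least 21 cells, all 13 did, and 10 were read in every cell. These cells were split off by their summed collagen level, so this breadth follows in part from the cut. dd_402 (COL11A1) had a median of 9190 CPM and a highest value of 20785 CPM over 53 cells, with a lowest of 1892 CPM over the 41. dd_649 (COL2A1) had a median of 8867 CPM and a highest value of 40764 CPM, and dd_701 (COL24A1) a median of 8496 CPM and a highest value of 31204 CPM. The type IV-like collagens, whose relatives form basement membranes, were lower, with medians of 2361 CPM for dd_1579, 2058 CPM for dd_2337 and 733 CPM for dd_2500 (all COL4A6). The exception to this even reading was dd_9565 (col21a1), which was read in 21 of 53 cells, all of them collagen-rich, with a median of 1.39 CPM and a highest value of 3356 CPM.

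Other matrix genes were read in a minority of cells. None of 15 reached 27 of 53 cells, where 4.24% of all transcripts did. The widest was mmp19 (dd_3902), a matrix metalloprotease, in 25 cells, all collagen-rich, followed by ADAMTSL1 (dd_8833) in 22, ADAMTSL3 (dd_3852) in 18, kallmann1 (dd_13188) in 15 and the tenascin TNC (dd_6736) in 14. Among 5 transcripts for making collagen, COLGALT2 (dd_11681), a collagen galactosyltransferase, was read in 23 cells at up to 1817 CPM, and the other 4 in 13 cells or fewer. The perlecan-like HSPG2 (dd_3527), in 3 cells, was read in none of the 41.

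Contractile transcripts came next to the collagens in breadth. Of 13, 9 were read in at least 27 of 53 cells and the same number in at least 21 of 41. They were MhcA in 53 cells, MYH7 (dd_249), a myosin heavy chain, in 48, MYL6B and MYH1 (dd_711) in 45 each, TPM1 (dd_405) and a further MhcA contig (dd_1434) in 44 each, calponin CNN2 (dd_333) in 43, TPM1 (dd_436) in 41 and transgelin TAGLN (dd_635) in 38. Away from MhcA the medians were modest, from 163 CPM for TAGLN to 2422 CPM for MYL6B. The other 4 contractile transcripts were read in fewer than 27 cells: CAPZB (dd_1165) in 18, FHL1 (dd_5037) in 14, titin-like TTN (dd_3381) in 7 and alpha-actinin ACTN2 (dd_10174) in 5. The low counts of long transcripts such as TTN may not be set beside those of short ones, since lengths were not used.

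Calcium and actin genes were divided in the same way. Of 10 calcium genes, 4 were read in at least 27 cells, among them the muscle protease CAPN3 (dd_1752) in 42, the plasma membrane calcium pump ATP2B3 (dd_1721) in 41 and the sarcoplasmic reticulum pump ATP2A2 (dd_1772) in 36. ATP2A2 had the highest single level of these 3, 11863 CPM, with a median of 1180 CPM, and all 36 of its cells were collagen-rich. Among 6 actin regulators, VIL1 was read in 41 cells and the tensin TNS1 (dd_5620) in 40. The 41 cells of VIL1 were exactly the collagen-rich cells, where it had a median of 549 CPM and a lowest level of 17.5 CPM.

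**Figure D3:**
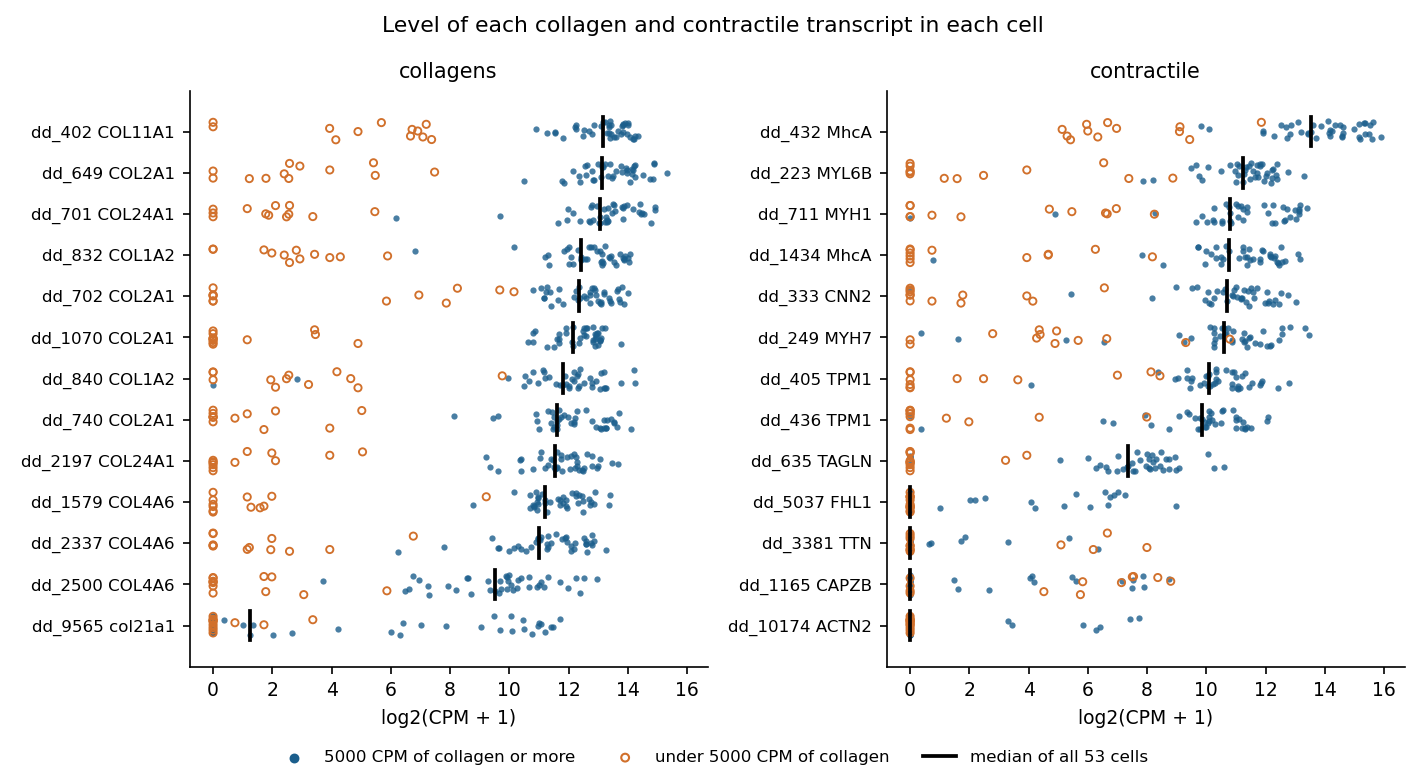
Level of each of the 13 collagen and 13 contractile transcripts in each cell, as log2(CPM + 1) on the x axis, with 1 row a transcript and points spread vertically for legibility only. Filled points are the 41 cells with 5000 CPM of collagen or more, open points the other 12, and black bars the median of all 53 cells. The highest medians are those of dd_402 (9190 CPM) and MhcA (11811 CPM), and FHL1, TTN, CAPZB and ACTN2 have a median of 0.

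Collagen and contractile levels were related across cells. The summed collagens had a median of 66364 CPM and the contractile transcripts a median of 25793 CPM over 53 cells, and 76548 and 37510 CPM over the 41. Spearman's rho between these sums was 0.771 across the 53 cells and 0.542 across the 41. Within the stretches of library numbers, and among collagen-rich cells only, it was 0.309 in 10 cells, 0.976 in 8 cells and 0.289 in 19 cells, and the stretch of 4 cells was too small for a value. The pooled relation therefore differed widely between stretches. Both sums also went with the number of transcripts read after thinning, with a rho of -0.47 for collagens and -0.41 for contractile transcripts over 53 cells, and all levels share the same total per cell.

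Between single members, the level of 1 collagen ran with that of another at a median rho of 0.741 over 66 pairs in 53 cells and 0.473 in the 41. For pairs of a collagen and a contractile, calcium or actin transcript the medians were 0.648 and 0.342 over 180 pairs, and for pairs within the latter set 0.628 and 0.381. The closest pair was the MhcA contigs dd_432 and dd_1434, at 0.978 and 0.961, which share a gene name and may share reads. The collagens dd_701 and dd_740 had 0.90 and 0.807. At the low end in the 41 cells were TAGLN and TNS1, at -0.21.

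The spread between cells had a lower median in these groups than over all transcripts, and their ranges overlapped those of other transcripts. The coefficient of variation (CV, the standard deviation of CPM over cells divided by its mean) had a median of 1.69 over the 1627 transcripts with at least 100 summed CPM. It was 0.905 for the 13 collagens, 0.994 for 9 contractile transcripts and 2.51 for 21 position genes that passed the same minimum. Over the 41 cells the medians were 1.60 for all 1603 transcripts, 0.637 for collagens, 0.742 for contractile transcripts and 2.29 for 23 position genes. Collagen was a condition of the screen, and the 41 cells were split off by it, so its CV is a description only. The 10 list members with the lowest CV, among 87 at 50 CPM or more, were 8 collagens from dd_1070 (COL2A1, 0.744) and dd_402 (COL11A1, 0.764) upwards, with MYL6B (0.867) and VIL1 (0.908).

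The members with the highest CV each owed most of their reads to a few cells. The LIM homeobox transcription factor islet2 (dd_35379) had a CV of 7.17, with 18183 CPM in its highest cell and reads in 3 thinned cells, and 91.7% of its summed reads came from that cell. The Notch ligand DLL1 (dd_13823, CV 5.39) took 93.4% of its reads from 1 cell, the kinase PKN2 (dd_7015, 5.58) 93.7% and the DNA ligase LIG1 (dd_7382, 5.82) 92.6%. The others of the 10 were netR (dd_11409, a netrin receptor, 4.80), the ephrin receptor EPHB1 (dd_27668, 4.79), KAL1 (dd_6746, 3.95), snail-like (dd_10216, 3.69), slit1 (dd_12111, 3.67) and FREM1 (dd_5187, 3.66). Over whole profiles, cells resembled each other only weakly, with a median Pearson r of log2(CPM + 1) of 0.220 over 1378 pairs of cells, and 0.243 over the 820 pairs of collagen-rich cells.

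Most position genes were read in a minority of cells, as most transcripts were. Of 88 members of 8 lists, 5 (5.68%) were read in at least 27 of 53 cells, close to the 4.24% of all transcripts, and 9 (10.2%) in at least 21 of 41, where 4.28% of all transcripts were. A cell had reads of 5 to 28 of the 88, with a median of 15. In the 41 cells this number rose with the number of transcripts read, at a rho of 0.691, so cells with more position genes were also cells with more transcripts of any kind.

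The Wnt list of 18 held the position gene read in most cells and 4 members read in none after thinning. Frz-d (dd_11650), named after the frizzled receptors of Wnt, was read in 44 of 53 (83%, 70.2% to 91.9%) and 39 of 41, with a median of 664 CPM and a highest value of 6734 CPM. The tail ligand wnt11-2 (dd_16209) was read in 25 cells, all collagen-rich, with a median of 11 CPM, and its highest values were 2466 CPM in cell 50, 1903 CPM in cell 5 and 1705 CPM in cell 46. Its 25 cells are 47.2% of the 53 (33.3% to 61.4%) and 25 of the 41 collagen-rich cells. At this depth a cell without a read cannot be taken as lacking wnt11-2. A Wnt secretion factor, Evi/Wls, has a pair of contigs, of which dd_9546 was read in 25 cells and dd_11629 in 17.

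Further Wnt members fell into receptors, transducers and inhibitors. The receptor kinase ror (dd_7911) was read in 22 cells, all collagen-rich, and the planar polarity gene Vang-2 (dd_11237) in 14. The intracellular kinase NLK-1 (dd_4172) was read in 29 cells and beta-catenin-1 (dd_2688), the transducer of canonical Wnt signals, in 23. The secreted inhibitor sfrp3 (dd_11070) was read in 18 cells, all collagen-rich, at up to 1237 CPM in cell 44. The inhibitor sfrp1 (dd_13985) was read in 1 cell and the receptor fz5/8-4 (dd_11823) in 2. The Wnt inhibitor notum (dd_24180), known from the anterior pole, was read in 4 cells, with 275 CPM in cell 41 and 67.8 CPM in cell 53 among its levels. The receptor ryk (dd_12594) was read in 4 cells, and FZD5 (dd_31236), fz5/8-2 (dd_17168), fz5/8-3 (dd_16571) and wif-like (dd_25158) in none after thinning.

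**Figure D4:**
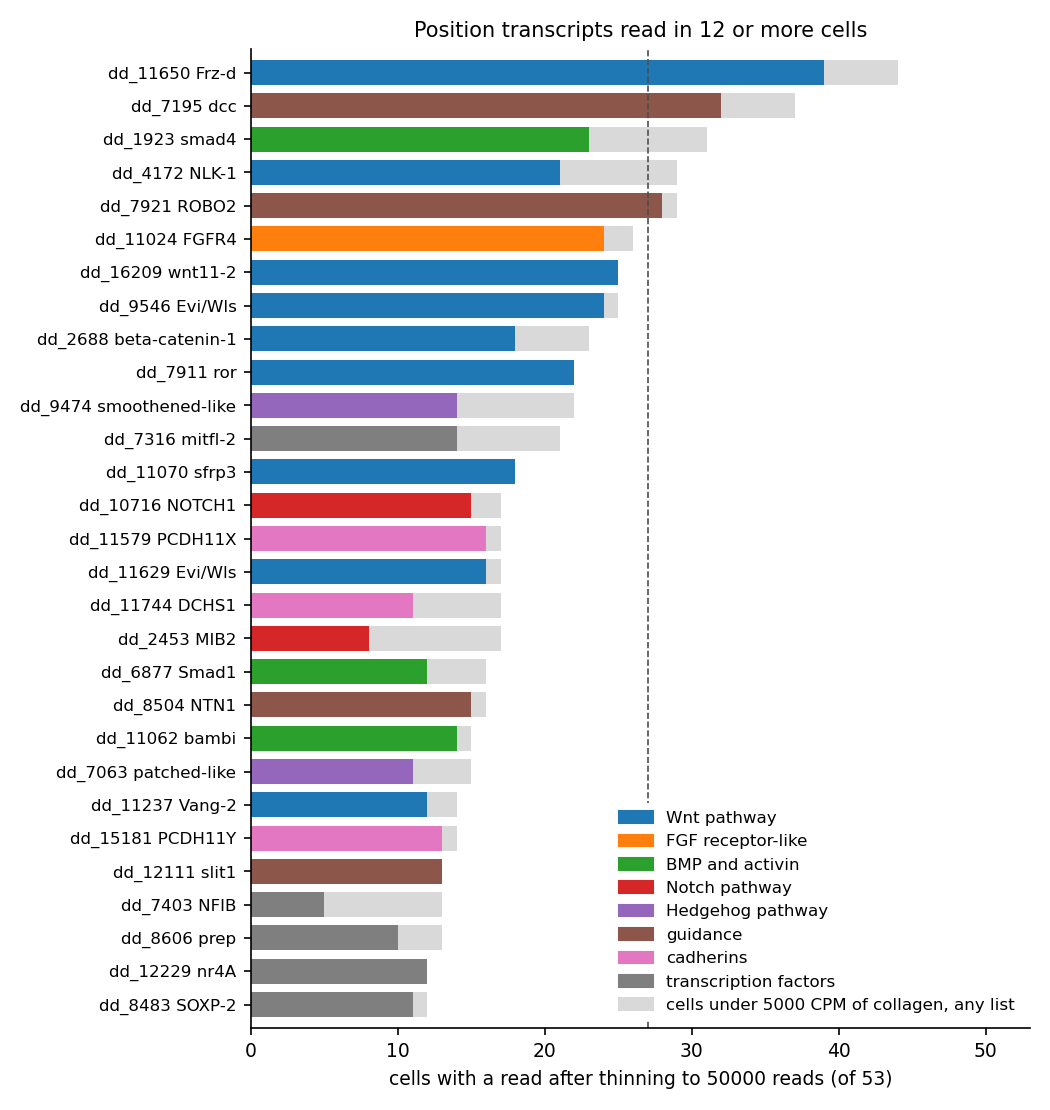
Number of cells with a read after thinning to 50000 reads (x axis, of 53 cells) for each position transcript read in 12 or more cells, coloured by list for the 41 collagen-rich cells with the other 12 cells in grey, and a dashed line at 27 cells. Frz-d (44), dcc (37), smad4 (31), NLK-1 (29) and ROBO2 (29) pass the line, and the bars of wnt11-2, ror, sfrp3, slit1 and nr4A have no grey part.

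Members of the FGF receptor-like and BMP lists were also uneven. FGFR4 (dd_11024), a receptor tyrosine kinase, was read in 26 cells and at up to 1072 CPM, whereas ndl-5 (dd_5102) was read in 1, NDK (dd_11285) in 2 and NDK-4 (dd_12674) in 1. Both ndk and ndl genes encode FGF receptor-like proteins used in head-to-tail patterning. Of 8 BMP and activin members, only the shared transducer smad4 (dd_1923) reached 27 cells, with 31 of 53 and 23 of 41. Smad1 (dd_6877) was read in 16 cells, the pseudoreceptor bambi (dd_11062) in 15, the activin inhibitor follistatin (dd_9584), also known from the anterior pole, in 11 and the receptor ACVR1 (dd_7151) in 7. A BMP ligand contig (dd_17402) was read in 3 cells, with 587 CPM in cell 24, 419 CPM in cell 43 and 43.7 CPM in cell 4. The BMP antagonist noggin1 (dd_15423) was read in 1 cell and the protease TLL1 (dd_1967) in 3, and none of these was a collagen-rich cell.

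In the Notch and Hedgehog lists no member reached 27 cells, where 4.24% of all transcripts did. NOTCH1 (dd_10716) and the ubiquitin ligase MIB2 (dd_2453) were read in 17 cells each, NOTCH2 (dd_13045) in 11, DLL1 in 8 and the ligand JAG1 (dd_11876) in 7. The Hedgehog transducer smoothened-like (dd_9474) was read in 22 cells and the receptor patched-like (dd_7063) in 15. Of the 17 cells with MIB2, 8 were collagen-rich.

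The guidance genes read most widely were receptors. The netrin receptor dcc (dd_7195) was read in 37 cells with a median of 78.7 CPM and at up to 1768 CPM in cell 44, and the slit receptor ROBO2 (dd_7921) in 29 cells at up to 3606 CPM. The cues for these receptors, netrin NTN1 (dd_8504) and slit1 (dd_12111), were read in 16 and 13 cells, and SLIT2 (dd_11533) in 3. UNC5B (dd_18393) and netR were read in 11 cells each, UNC5C (dd_10730) in 10, and the 4 ephrin receptor contigs in 3 to 5. The widest of 11 cadherins were PCDH11X (dd_11579) and DCHS1 (dd_11744), in 17 cells each.

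None of 27 transcription factors was read in 27 cells, where 4.24% of all transcripts were. The widest was mitfl-2 (dd_7316), in 21 of 53 and 14 of 41, followed by NFIB (dd_7403) and prep (dd_8606) in 13 each. The nuclear receptor nr4A (dd_12229) was read in 12 cells, all collagen-rich, at up to 1705 CPM in cell 22 and 1573 CPM in cell 10. In planarians myoD and nkx1-1 are needed for longitudinal and circular body wall muscle fibres, in that order. myoD (dd_12634) was read in 6 cells, at 1188 CPM in cell 51, 483 CPM in cell 8, 318 CPM in cell 6 and 296 CPM in cell 7, and at about 14.3 CPM in cells 2 and 5. nkx1-1 (dd_19327) was read in 2 cells and had 402 CPM in cell 41 and 13.3 CPM in cell 65, so neither fibre gene was read in most cells at this depth. pitx (dd_15253) was read in 4 cells, islet1 (dd_8820) and the head pole gene foxD (dd_23249) in 1 each, and musculin, ZicA, snail-1, NKX2-4 and ptf-1 had no read in any cell.

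A list of 10 transcripts that depend on nr4A in planarians, taken from the study, had 3 members read in at least 27 of 53 cells and 6 in at least 21 of 41. They were the tubulin TUBA3D (dd_508) in 52 cells, the small heat shock protein hspb1 (dd_2736) in 36 and the unnamed dd_2972 in 27, with the RNA-binding protein qki (dd_11601) in 26, mmp19 in 25 and col21a1 in 21. Of the 12 cells with nr4A, 11 also had hspb1, 10 had dd_2972, 9 had mmp19, 9 had qki and 7 had col21a1. Outside nr4A cells these transcripts were common as well, for example hspb1 in 25 further cells and qki in 17.

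Housekeeping transcripts give a scale for these counts. No member of lists of 8 proteasome and ubiquitin, 6 respiratory chain or 6 mitochondrial ribosome transcripts was read in 27 cells, and the widest were read in 18, 17 and 12 cells. Of 7 splicing transcripts only SF3B1 (dd_2754) was, in 27. A gene needed by every cell was thus commonly unread at this depth, and an unread position gene cannot be taken as silent.

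Position, matrix and contractile members read together were counted by the phi coefficient of presence over cells, which is 1 when the same cells have both members and 0 when presence is unrelated. Among 98 members read in 5 to 48 of the 53 cells, 374 of 4753 pairs (7.87%) had a phi of at least 0.4, where 1.49% of all transcript pairs in that range did. The highest were pairs of collagens: dd_1070 with dd_2337, dd_740 with dd_2197 and dd_701 with dd_1070, each with a phi of 0.94 and 43 cells with both. The lowest was ATP2B3 with the kinase CAMK2D (dd_4320), at -0.72, with 0 cells having both. Without the 12 collagen-poor cells, 64 of 2278 pairs (2.81%) of 68 members had a phi of at least 0.4, beside 1.98% of all pairs. With another random thinning the share of member pairs was 2.49% and without thinning 1.95%. The share of all pairs was not computed for those settings, so only 2.81% and 1.98% can be set side by side.

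Within the 41 cells, the pairs with the highest phi centred on myoD. myoD was read in 5 of them, and all 5 also had snail-like and the protocadherin PCDH11Y (dd_9677), with a phi of 0.82 for each pair, and TNC (0.66). JAG1 was read in 4 of the 5 (0.69). Snail-like had phi values of 0.66 with PCDH11Y and 0.65 with TNC. The cells were 5, 6, 7, 8 and 51, of which the first 4 have consecutive library numbers, and wnt1 reads were found in cells 5 to 8 as well. In cell 5 myoD had 3 reads, whereas TNC had 1153. After thinning, myoD in cell 5 and PCDH11Y in cell 7 each rested on 1 read. At full depth myoD also had 1 read each in the collagen-rich cells 1 and 15 and 7 reads in cell 40. No pair of these cells met the limit of 10 used for summing repeats. The chi-square per degree of freedom between the counts of any 2 of these 5 cells was 61.1 to 293. This statistic grows with reads where profiles differ, so its size cannot be set beside the 1.28 to 7.4 of the summed pairs. The part of library order in this group of reads was not tested.

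**Figure D5:**
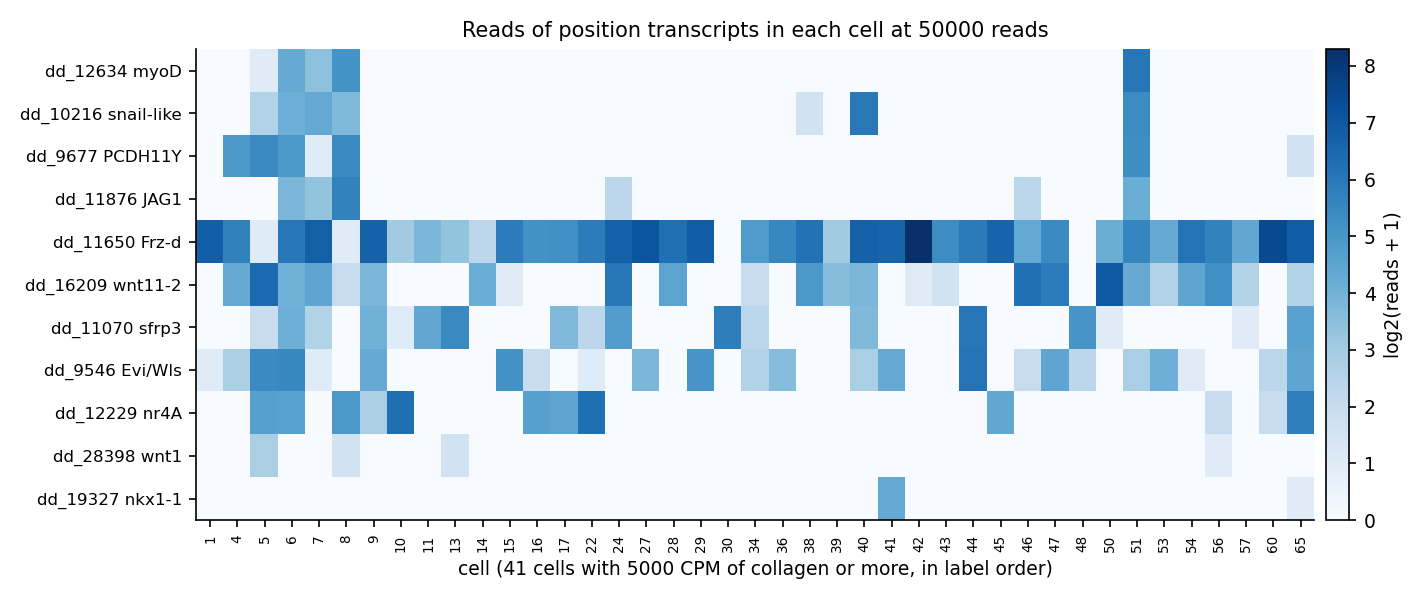
Reads after thinning to 50000 reads, as log2(reads + 1) by shade, of 11 position transcripts (rows) in the 41 cells with 5000 CPM of collagen or more (columns, in label order). The upper 4 rows share cells 5 to 8 and 51 in whole or in part, Frz-d fills 39 of 41 columns, and nkx1-1 is read in cells 41 and 65.

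Other pairs high in the 41 cells were dcc with CAPN3 (0.70), where all 32 cells with dcc also had CAPN3, the zinc finger gene GATA456-2 (dd_9910) with the calcium-binding SCGN (dd_1230, 0.59), netR with the homeobox gene IRX2 (dd_11500, 0.57) and NOTCH2 with NFIB (0.57). A further pair, singled out after its values were seen, was follistatin with col21a1 (0.55), in which all 10 cells with follistatin had col21a1. The lowest pairs were KAL1 (dd_10075) with TNS1 (-0.49), ror with netR (-0.45), FGFR4 with PCDH11X (-0.44), dcc with FREM1 (-0.43) and netR with mmp19 (-0.42). Several of these counts rest on 4 to 8 cells.

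Pairs chosen by role were mostly unrelated in presence. All 25 cells with wnt11-2 also had Frz-d, but so did 14 of the 16 collagen-rich cells without it. wnt11-2 and sfrp3 were read together in 10 cells, apart in 15 and 8, and neither was read in 8 of the 41 (phi -0.10). wnt11-2 and the Wnt secretion contig dd_9546 shared 14 cells (-0.06), NTN1 and its receptor dcc 12 (0.04), slit1 and ROBO2 8 (-0.10), Smad1 and smad4 6 (-0.08) and patched-like with smoothened-like 4 (0.03). The Evi/Wls contigs shared 13 of 41 cells (0.37) and carry the same name. nr4A and myoD shared 3 cells (0.25). myoD and nkx1-1 were read in 5 and 2 of the 41 cells and shared 0 (-0.08). So few cells cannot show whether these 2 genes keep apart.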

How the data were processed

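Single cells were profiled by Smart-seq2 in 4 labelled groups, of which only the uninjured non-pole libraries were analysed. As deposited, the values are counts of reads per contig, with the reads processed with CASAVA 1.7.0, Trimmomatic 0.32 and Bowtie (its version, the counting tool and the treatment of reads with several matches are not given in the sources used here). The count table had 26566 rows. Rows of the same contig number were summed to 26399 transcripts, and 6 rows outside the list of contigs that the authors compared were left out of the totals: 2 contigs, the mitochondrial and 5S ribosomal sequences, unidentified reads and 1 row with no read. Together they took 53.9% of the counted reads (12.1% to 91.2% per cell). The authors' comparison table also holds log2 fold estimates with their bounds and Z scores, which the authors made by fitting error models to single cells; the log2 and score values were not used.

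The libraries with at least 50000 reads (59 of the 65) gave 1711 pairs, of which 6 had a chi-square per degree of freedom below 10 over transcripts with at least 20 reads (next pair 23.7, median 177) and were summed. Cells under 50000 reads were dropped (6 cells, 12744 to 48649 reads). Each cell was thinned to 50000 reads without replacement (seed 1). CV was computed on CPM, phi on presence for members read in 5 to 48 cells (5 to 36 of the 41), Spearman's rho on CPM. Shares have exact Clopper-Pearson intervals and sums exact Poisson intervals, at 95%. No test was run, because the labels name no animal and the group is 1 sample. Scripts used Python 3.11.15, numpy 2.4.6, pandas 2.3.3, scipy 1.17.1 and matplotlib 3.10.9, and CV, phi and the search for repeats were tested on simulated data. Doublets were not called. The primer sequences come from the study's supplementary primer list.

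Named were the 20 transcripts with most reads, the 20 read most widely, the 10 members at each end of the CV, the 10 highest and 5 lowest pairs by phi, all members read in at least 27 cells and all Wnt, BMP, FGF receptor-like and transcription factor members; other members named were chosen after their values were seen, and 1 member that the rule names is not reported here. The members and lists were chosen with earlier results of these data known. Alternatives were a depth of 20000 reads, no thinning, another seed, CPM of all counted reads, other minima and leaving out the collagen-poor cells.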

Additional observations from a re-analysis of the deposited data

Results flagged for a closer look

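Reads outside the 26399 transcripts made up more than those on them. Of all counted reads in the 53 cells, 15.3% fell on a row of contig dd_4, 17.2% on a row of contig dd_7 and 21.4% on mitochondrial RNA, while 5S ribosomal RNA took 0.00701% and unidentified reads 0.000356%. They are shown because no result above uses them and each is above what 3 reads would give. Per cell, dd_4 took 3.28% to 35.1%, dd_7 0.929% to 64.8% and mitochondrial RNA 0.394% to 60.1%. The share of the 2 contigs had a median of 64.2%, 9.61%, 46.2% and 13.8% in the 4 stretches of library numbers, in their order, and a rho of -0.74 with the reads left on the other transcripts across the 53 cells. Inside the stretches this share was uneven, at 29.4% to 90.6% in the first and 4.26% to 69.8% in the last.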

How the results depend on the processing

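Main values over 53 cells were 19 transcripts read in every cell, a median of 2727 transcripts a cell, 5 position members read in at least 27 cells, collagen and contractile medians of 66364 and 25793 CPM with a rho of 0.771, a median CV of 1.69 and 7.87% of member pairs at a phi of at least 0.4. Thinned to 20000 reads, the first 3 became 11, 2228 and 2. Without thinning they became 44, 3734 and 11, and the share of pairs 4.27%. On CPM of all counted reads, the collagen median was 21448 CPM and the contractile median 9687 CPM. With no level minimum the median CV was 3.70, and with members read in 10 to 43 cells the share of pairs was 6.5%. Without the collagen-poor cells, 45 transcripts were read in every cell, 9 position members in at least 21, the rho was 0.542 and the share of pairs 2.81%. Chosen after seeing the data, the same 41 cells gave 43, 9 and 2.49% with another seed, and without thinning 89, 13 and 1.95%, with 3722 transcripts a cell. Over all alternatives, 22 of these summary values moved and 48 did not, 51 values of single members moved and 495 did not, and of pair values 45 moved and 3 changed sign. Over 53 cells, NOTCH2 with NFIB had a phi of 0.25, and -0.0090 at 20000 reads. FGFR4 with PCDH11X had -0.27, and 0.039 with another seed or 0.099 without thinning. Why the values moved was not tested beyond what each setting changes by construction. No paired analysis was possible because only 1 group was described and its replicate numbers follow accession order. Depth limits presence: a transcript unread in a cell may lie below 20 CPM.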

Other observations

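Pairs of list levels not described above also varied over cells. The summed calcium handling level had a rho with dd_1574 of -0.32 across 53 cells and -0.70 across the 41, and with the share of the 2 contigs left out of 0.17 and 0.60. Contractile and Wnt levels had a rho of 0.25 across 53 cells and -0.39 across the 41. The summed transcription factor level ranged up to 20118 CPM, of which islet2 (dd_35379) gave 18183 CPM in the same cell. All these levels share 1 total per cell and have no replicate beyond the cells.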
